A study of Homo sapiens with 6 samples.

Results

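The acute-phase and complement genes described here were the rows of the deposited gene table whose symbol was FGA, FGB, FGG, SERPINA1, SERPINA3, C3, C5, CFB or LCN2. All 9 members were found, with 1 row each, among 60612 genes. Of these, 7 were among the 15937 genes that passed the filter on low counts, and SERPINA3 and LCN2 were not tested. The cells were A549, a human lung adenocarcinoma line labelled as epithelial, harvested 48 hours after transfection. The siGSE1 group, 3 libraries, came from cells given small interfering RNA (siRNA) against GSE1, and the control group, 3 libraries, from cells of the same line given a negative control siRNA. Neither the sequence nor the number of the siRNAs is stated in the labels, which name no drug or cytokine, and all libraries came from 1 cell line. The labels do not say whether the replicates were separate cultures, so a p-value reflects no more than how these libraries scatter, and that scatter may be technical.

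Acute-phase proteins are secreted plasma proteins whose synthesis, mainly in hepatocytes, changes during inflammation. Interleukin-6 (IL-6) acts through the receptor chain gp130 and the transcription factor STAT3, interleukin-1 acts through NF-kappaB, and C/EBP factors bind many of the same promoters. Lung epithelial cells, A549 among them, make several of these proteins too, including fibrinogen and complement C3. Fibrinogen, the precursor of the fibrin clot, is assembled from alpha, beta and gamma chains encoded by FGA, FGB and FGG. SERPINA1 (alpha-1-antitrypsin) and SERPINA3 (alpha-1-antichymotrypsin) inhibit proteases of neutrophils and mast cells. C3 is the central protein of the complement cascade, CFB provides the protease of the alternative pathway convertase, C5 is cleaved to start the terminal pathway, and LCN2 binds bacterial iron carriers.

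The fibrinogen genes lie within 49957 bases of chromosome 4 and encode chains made together, and their promoters are shown because 2 of the 3 genes rose in siGSE1 cells. The sequences are the 250 bases before the start site in RefSeq (GRCh38.p14), read 5' to 3' on the strand of the gene, with the motifs that were searched in capitals. The FGA sequence is chr4:154590743-154590992 on the minus strand, that of FGB is chr4:154562761-154563010 on the plus strand, and that of FGG is chr4:154612657-154612906 on the minus strand, a start site 311 bases inside the deposited end of that gene.
FGA: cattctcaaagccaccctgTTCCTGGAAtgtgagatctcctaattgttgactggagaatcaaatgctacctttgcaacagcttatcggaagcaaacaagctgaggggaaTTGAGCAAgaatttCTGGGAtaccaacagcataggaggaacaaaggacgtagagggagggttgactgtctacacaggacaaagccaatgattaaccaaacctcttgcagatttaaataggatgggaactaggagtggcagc
FGB: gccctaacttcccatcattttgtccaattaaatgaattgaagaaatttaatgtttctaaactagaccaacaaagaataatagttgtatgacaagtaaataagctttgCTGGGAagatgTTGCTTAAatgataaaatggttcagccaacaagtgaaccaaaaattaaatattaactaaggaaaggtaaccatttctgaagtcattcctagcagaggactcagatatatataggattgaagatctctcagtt
FGG: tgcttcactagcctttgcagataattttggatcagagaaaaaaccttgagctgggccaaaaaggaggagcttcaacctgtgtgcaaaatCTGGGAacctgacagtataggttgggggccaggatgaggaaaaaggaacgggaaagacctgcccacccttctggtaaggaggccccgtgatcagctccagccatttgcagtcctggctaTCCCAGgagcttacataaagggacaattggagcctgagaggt

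The IL-6 response core CTGGGA, the short element through which IL-6 is known to act on fibrinogen promoters, was found in all 3 windows. Counting the last base before the start as -1, it began at -127 in FGA, at -143 in FGB, and in FGG at -161 and, on the opposite strand, at -42. Both FGA and FGB also held 1 C/EBP site written as TTGCNNAA, on the opposite strand at -141 and on the strand of the gene at -132, whereas the FGG window held none. A STAT palindrome, TTCNNNGAA, was present in FGA at -231. Motifs were searched on both strands over 35116 RefSeq windows of the same length, of which 28.7% held CTGGGA, 9.05% TTGCNNAA and 6.57% TTCNNNGAA. The TATA box TATAAA, in 10.7% of windows, and an NF-kappaB site of GGGAA and TCC separated by any 2 bases, in 1.3%, were in none of the fibrinogen windows. Among the other members, CFB held TTCNNNGAA and TATAAA, LCN2 the NF-kappaB site and TTGCNNAA, and C5, SERPINA1 and SERPINA3 none of the motifs searched. FGB, C5 and SERPINA1 each had 2 windows, and their matches are given for 1 of them. C3 had no entry in the promoter table. A half-site of the transcription factor HNF1, GTTAAT, was planned as a further motif, but its matches and its share of windows were not counted. Its reverse complement, ATTAAC, stands in lower case in the FGA and FGB sequences and is absent from that of FGG. All of these are matches of letters and were not tested as binding sites.

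Library totals ran from 14475992 to 20755506 counts, and the targeted gene was lower in all siGSE1 libraries. GSE1 had 7.37, 8.06 and 7.92 FPKM (counts scaled by exonic length and library total) in control replicates 1, 2 and 3 and 3.84, 4.06 and 3.73 in siGSE1 replicates 1, 2 and 3 (log2 fold change -1.03, SE 0.06, adjusted p = 2.14e-08 by edgeR). Epithelial keratins were abundant, with KRT8 at 754 ± 101 FPKM in control and 640 ± 10.6 in siGSE1 cells (SD, n = 3 each), but EPCAM was at 0.957 ± 0.172 and 0.667 ± 0.191. By edgeR 2 of the 6 epithelial markers were lower, KRT8 (log2 -0.26, adjusted p = 0.0173) and KRT18 (log2 -0.25, adjusted p = 0.0317). Of all tested genes, 9.02% were lower. Without control replicate 2, KRT8 and KRT7 were lower (adjusted p = 0.0221 and 0.0447), as were 10.1% of all tested genes. Of 12 hepatocyte markers, 11 were under 1 FPKM in both groups, and ALB, which encodes albumin, was at 0.55 ± 0.437 and 0.87 ± 0.182. The summed level of the hepatocyte markers was 6.2 to 12.6 FPKM in control and 8.71 to 9.44 in siGSE1 libraries. Without control replicate 2, 2 of the 4 tested hepatocyte markers were higher in siGSE1 cells, ALB (log2 1.47, adjusted p = 0.00119) and APOH (log2 0.44, adjusted p = 0.0368), and with it none was (adjusted p = 0.33 and 0.98). These markers moved with the fibrinogen genes in that comparison, and their part in it was not tested. In the same fit 11.8% of all tested genes were higher, against 10.9% with control replicate 2. Control replicate 2 stood apart from the other controls. Comparing counts over genes, pairs with this library had a chi-square of 9.2 and 8.23 per degree of freedom, against 4.34 for the control pair without it and 2.44 to 3.17 among siGSE1 libraries. Since this library was also the highest control for FGA, FGB, FGG, C3, C5 and CFB, the members' results and the list counts are given with and without it.

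The members differed widely in level. Per length, the order C3, C5, FGA, FGB, FGG, CFB held in all 6 libraries. Control means were 61.6 ± 22.0 FPKM for C3, 36.9 ± 7.11 for C5, 17.4 ± 7.12 for FGA, 12.8 ± 6.94 for FGB, 9.19 ± 5.44 for FGG and 3.98 ± 0.808 for CFB (SD, n = 3). In control cells C5 and FGA differed by more than the sum of their SDs, and the other neighbours in this order by less. In siGSE1 cells the same order came with narrower spreads, at 49.8 ± 2.7, 35.3 ± 0.627, 29.9 ± 0.433, 23.7 ± 1.23, 11.2 ± 2.12 and 3.18 ± 0.592 FPKM (SD, n = 3), and each neighbour then differed by more than the sum of their SDs. SERPINA1, SERPINA3 and LCN2 were at 0.36 FPKM or less in every library.

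FGA and FGB rose after GSE1 knockdown, FGG did not pass the test, and no member fell. With edgeR's quasi-likelihood test over all genes, 2 of the 7 tested members were higher and 0 lower, where 10.9% of all tested genes were higher, 9.02% lower and 19.9% changed in either direction. The 2 that rose were both fibrinogen chains. At an unadjusted p under 0.05, 3 members were lower (SERPINA1, C3 and CFB), and DESeq2 called none in either direction, giving SERPINA1 no adjusted p. The groups did not overlap in FPKM for FGA and FGB, where this was true of 36.1% of all tested genes and, with siGSE1 higher, of 21.2%. In bulk RNA, fewer cells making a transcript and less of it per cell cannot be told apart.

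**Figure D1:**
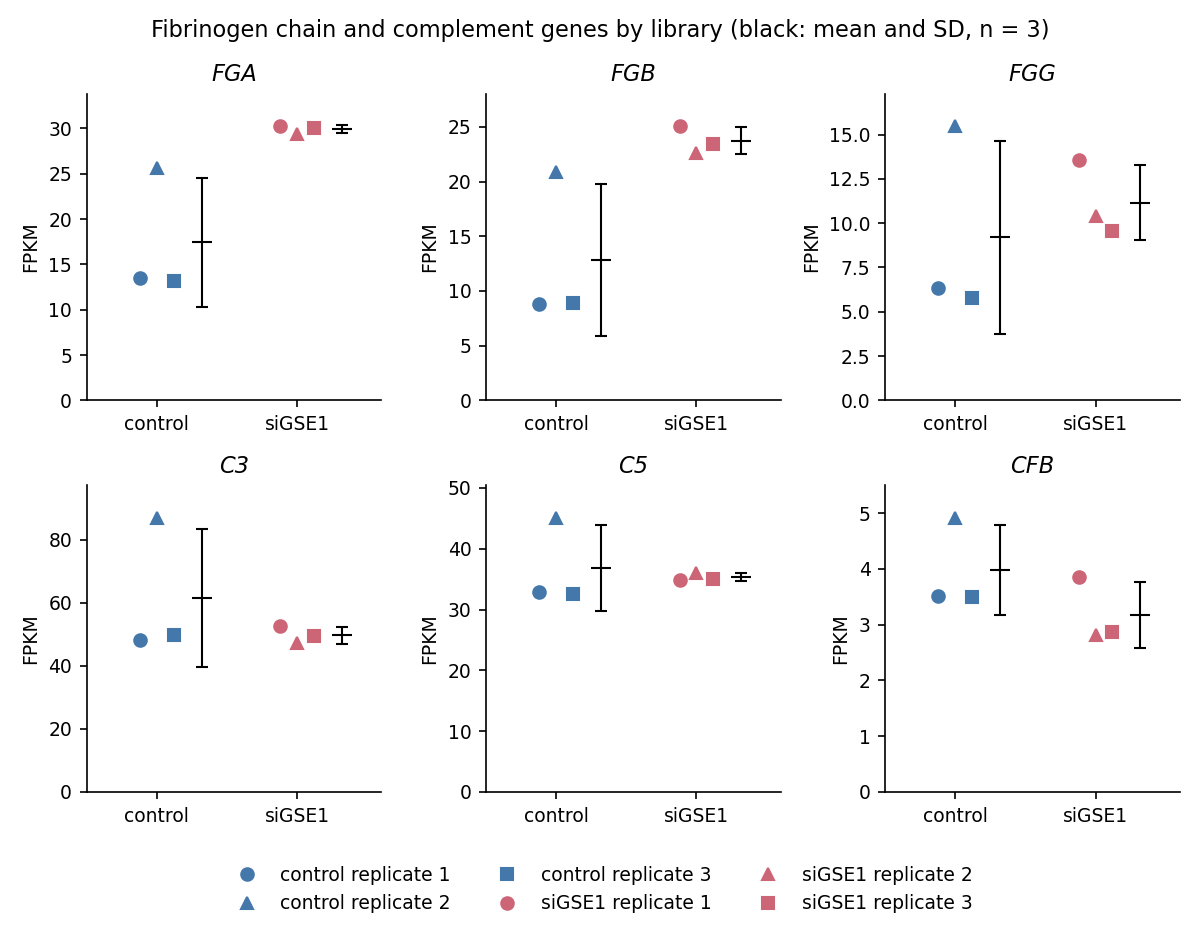
FPKM of the 6 members above the detection floor, 1 panel per gene, with 1 point per library (shape gives the replicate number) and the mean and SD of each group in black. The control replicate 2 triangle lies above the other controls in every panel, and the siGSE1 points lie above all controls for FGA and FGB only.

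FGA, the alpha chain gene (ENSG00000171560, chromosome 4, 154583128 to 154590745, minus strand, hg38), had 13.45, 25.66 and 13.22 FPKM in control replicates 1, 2 and 3. In siGSE1 replicates 1, 2 and 3 it had 30.23, 29.42 and 30.09 FPKM. All siGSE1 values lay above all control values, but control replicate 2 lay much nearer to them than to the other controls. The fold change was 1.67 (log2 0.74, SE 0.17, edgeR adjusted p = 0.0053). Without control replicate 2 the fold was 2.2 (log2 1.14, SE 0.06, adjusted p = 3.96e-18). The counts behind these values were 750 to 2087 in control and 2075 to 2348 in siGSE1 libraries. Adjusted p-values without control replicate 2 are not on the same footing as those of the main fit. GSE1, with SE 0.06 in both edgeR fits, had log2 -1.0 and adjusted p = 3.1e-16 without it, against -1.03 and 2.14e-08 with it.

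FGB, the beta chain gene (ENSG00000171564, chromosome 4, 154563011 to 154572807, plus strand), had 8.77, 20.83 and 8.86 FPKM in the control replicates in the same order and 25.04, 22.62 and 23.47 in the siGSE1 replicates. Again the siGSE1 libraries were all higher, and control replicate 2 was 2.36 times the mean of the other 2 controls. FGB rose 1.8-fold (log2 0.85, SE 0.22, adjusted p = 0.0116), or 2.64-fold without that library (log2 1.4, SE 0.07, adjusted p = 7.3e-20). For FGA and FGB the exact two-sided permutation p on log2(FPKM + 0.5) was 0.1, the smallest that 3 libraries against 3 allow.

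The calls of both genes depended on how the spread of single genes was modelled. With edgeR's robust prior, under which 11.1% of genes were higher, the adjusted p was 0.196 for FGA and 0.251 for FGB. DESeq2, with 9.90% of genes higher, gave adjusted p-values of 0.0847 and 0.148. Under limma voom with sample quality weights, which let a library that stands apart count for less and was added after the data were seen, both were called (adjusted p = 3.11e-05 and 5.46e-05), where 11.2% of genes were higher. Control replicate 2 received the lowest weight, 0.556, against 0.887 to 1.42 for the others. FGB also lost its call without control replicate 1 (log2 0.63, adjusted p = 0.0572) and without siGSE1 replicate 3 (log2 0.86, adjusted p = 0.0586).

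FGG, the gamma chain gene (ENSG00000171557, chromosome 4, 154604134 to 154612967, minus strand), had 6.33, 15.46 and 5.78 FPKM in the control replicates and 13.55, 10.39 and 9.53 in the siGSE1 replicates. The groups overlapped, since control replicate 2 held the highest value of all 6 libraries. The log2 fold change was 0.23 (SE 0.25, adjusted p = 0.574), and the exact permutation p was 0.4. Without control replicate 2, where 11.8% of genes were higher, it was 0.85 (SE 0.11, adjusted p = 3.6e-08), and all 3 fibrinogen genes passed. Summed over the chains, fibrinogen transcripts stood at 27.9 to 61.9 FPKM in control and 62.4 to 68.8 in siGSE1 libraries.

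**Figure D2:**
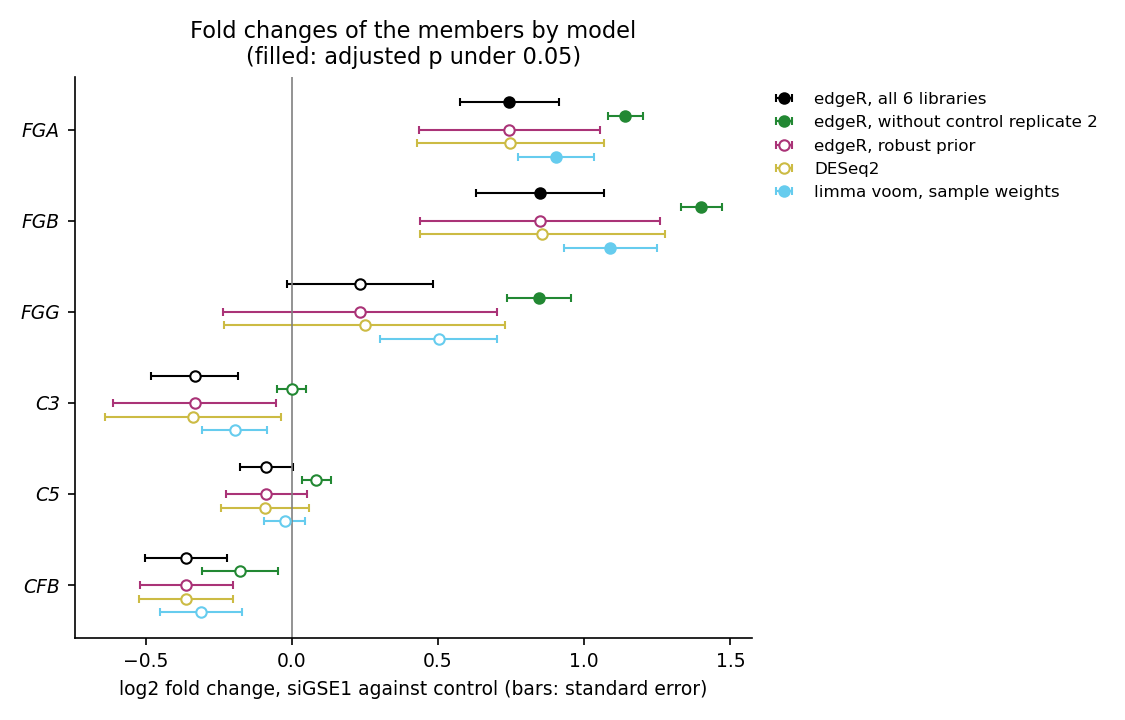
Log2 fold change of siGSE1 against control with its standard error for 6 members under 5 models (filled points have an adjusted p under 0.05). FGA and FGB lie right of 0 under every model drawn, and leaving out control replicate 2 moves FGG from 0.23 to 0.85 and C3 from -0.33 to -0.00.

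The complement members did not pass the test in either direction. C3 (ENSG00000125730, chromosome 19, 6677704 to 6730562, minus strand) had 48.2, 86.97 and 49.71 FPKM in the control replicates and 52.64, 47.27 and 49.45 in the siGSE1 replicates. Apart from control replicate 2 all libraries lay between 47.27 and 52.64. The log2 fold change was -0.33 (SE 0.15, adjusted p = 0.139) with that library and -0.00 (SE 0.05, adjusted p = 0.996) without it. C3 passed as lower without control replicate 1 (adjusted p = 0.0401) or control replicate 3 (adjusted p = 0.0344), fits in which control replicate 2 was 1 of 2 controls.

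C5 (ENSG00000106804, chromosome 9, 120952335 to 121050275, minus strand) had 32.91, 45.06 and 32.59 FPKM in control and 34.84, 36.03 and 35.09 in siGSE1 replicates. The siGSE1 values fell between control replicate 2 and the other controls. Its log2 fold change was -0.09 (SE 0.09, adjusted p = 0.561), and 0.08 (SE 0.05, adjusted p = 0.28) without control replicate 2. CFB (ENSG00000243649, chromosome 6, 31945650 to 31952084, plus strand) had 3.52, 4.91 and 3.5 FPKM in control and 3.86, 2.81 and 2.86 in siGSE1 replicates. Here the groups overlapped through siGSE1 replicate 1. The log2 fold change of CFB was -0.36 (SE 0.14, adjusted p = 0.093), or -0.18 (SE 0.13, adjusted p = 0.354) without control replicate 2, and it passed as lower without siGSE1 replicate 1 (log2 -0.52, adjusted p = 0.0319). CFB shares 6399 bases with the annotated gene AL645922.1, listed at 0 counts in every library, and C3 shares 649 bases with GPR108, so reads there could be split or set aside in counting.

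The level of control replicate 2 relative to the mean of the other 2 controls was 1.92 for FGA, 2.36 for FGB, 2.55 for FGG, 1.78 for C3, 1.38 for C5 and 1.4 for CFB. It was the highest control for 6 of these 6 genes, where it was the highest control for 34.4% of all tested genes, with a median log2 difference of 0.00. Relative to that library, mean siGSE1 levels were 1.17 for FGA and 1.14 for FGB, but 0.722 for FGG, 0.784 for C5, 0.647 for CFB and 0.572 for C3. So control replicate 2 shared high fibrinogen levels with the siGSE1 libraries and did not share its high C3 with them, while its GSE1 level lay with those of the other controls. What set this library apart was not tested.

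Ratios between members within a library cancel the scaling between libraries, and all 15 pairs among the 6 expressed members were compared, a comparison added after the values were seen. The ratio of FGA to C3 FPKM was 0.279, 0.295 and 0.266 in the control replicates and 0.574, 0.622 and 0.608 in the siGSE1 replicates. For this pair control replicate 2 lay near the other controls. In the other 8 pairs of a fibrinogen chain with a complement gene it lay further above them, as in FGA to C5 (0.409, 0.569 and 0.406 in the control replicates) and FGB to CFB (2.49, 4.24 and 2.53). The mean ratio went from 0.28 ± 0.0146 to 0.602 ± 0.0248 (SD, n = 3 each), 2.15-fold, with an exact permutation p of 0.1, the smallest the design allows, and 0.167 after Benjamini-Hochberg adjustment over the 15 pairs. FGB to C3 went from 0.2 ± 0.0344 to 0.476 ± 0.00202, and FGG to C3 from 0.142 ± 0.0321 to 0.223 ± 0.0325 (SD, n = 3 each). Of the 9 pairs of a fibrinogen chain with a complement gene, 8 had groups that did not overlap, the exception being FGG to C5, and so had 1 of the 6 pairs within a role. Over all pairs of the 15922 tested genes with counts in every library, the groups did not overlap in 32.4%. The 9 pairs share 6 genes and the same libraries, so they are not independent of each other. No adjusted p passed 0.05, which 3 libraries against 3 could not reach.

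Among the pairs of fibrinogen chains, 1 had groups that did not overlap. FGB to FGG, the 1 pair within a role whose groups did not overlap, was 1.39, 1.35 and 1.53 in the control replicates and 1.85, 2.18 and 2.46 in the siGSE1 replicates, so that FGG was lower relative to FGB in every siGSE1 library (exact permutation p = 0.1, adjusted p = 0.167). FGA to FGB was 1.53, 1.23 and 1.49 in control and 1.21, 1.3 and 1.28 in siGSE1 replicates, and these groups overlapped. FGA to FGG, at 2.12, 1.66 and 2.29 in control and 2.23, 2.83 and 3.16 in siGSE1 replicates, overlapped too (exact permutation p = 0.2, adjusted p = 0.273). C3 to C5 (1.46, 1.93 and 1.53 against 1.51, 1.31 and 1.41) and C3 to CFB (13.7, 17.7 and 14.2 against 13.6, 16.8 and 17.3) overlapped as well.

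**Figure D3:**
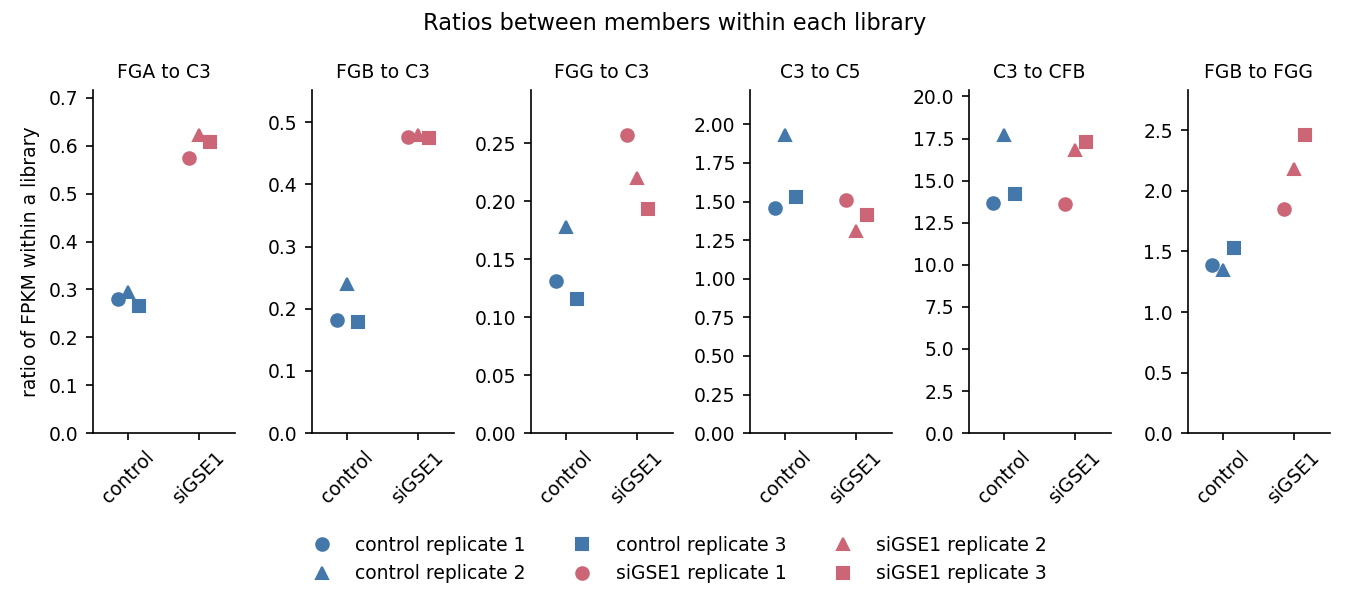
Ratio of FPKM between 2 members within each library for 6 of the 15 pairs, 1 point per library. The siGSE1 points lie above all control points for FGA to C3 (0.574 to 0.622 against 0.266 to 0.295), FGB to C3, FGG to C3 and FGB to FGG, and the groups overlap for C3 to C5 and C3 to CFB.

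The antiprotease genes and LCN2 were near the detection floor. SERPINA1 (ENSG00000197249, chromosome 14, 94376747 to 94390693, minus strand) had 26, 23 and 6 counts in the control replicates and 9, 4 and 12 in the siGSE1 replicates, or 0.08 to 0.26 against 0.04 to 0.12 FPKM. Control replicate 3, the shallowest library, lay among the siGSE1 values. The log2 fold change was -1.14 (SE 0.51, adjusted p = 0.131), and -1.01 (SE 0.59, adjusted p = 0.234) without control replicate 2. Pooled over each group, 55 control and 25 siGSE1 counts gave 0.201 FPKM (95% exact Poisson interval 0.152 to 0.262) and 0.0898 FPKM (0.0581 to 0.133), intervals that cover counting error only.

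SERPINA3 (ENSG00000196136, chromosome 14, 94612384 to 94624055, plus strand) had 1, 8 and 2 counts in control and 0, 2 and 3 in siGSE1 replicates, and 3 counts in siGSE1 replicate 1 would have been 0.0342 FPKM. Control replicate 2 held most of its control counts. LCN2 (ENSG00000148346, chromosome 9, 128149071 to 128153453, plus strand) had 8, 6 and 3 counts in control and 10, 4 and 5 in siGSE1 replicates. Pooled levels of LCN2 were 0.191 FPKM (0.111 to 0.306) and 0.21 FPKM (0.126 to 0.328). A difference in these 2 genes was not detectable at this depth.

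**Figure D4:**
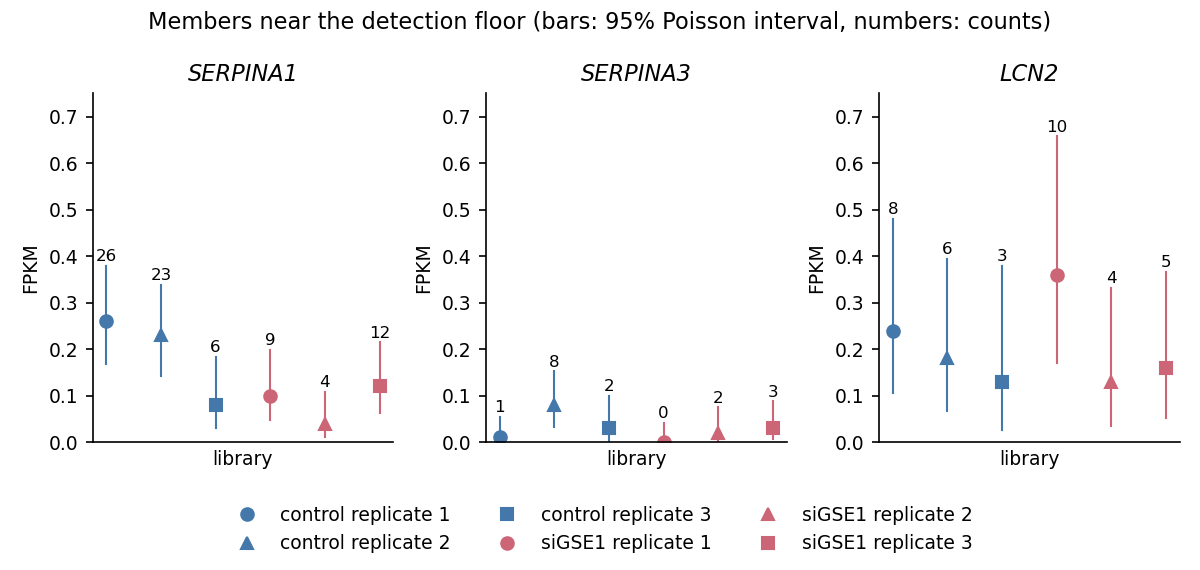
FPKM of SERPINA1, SERPINA3 and LCN2 in each library with 95% exact Poisson intervals and the count printed above each interval. Intervals overlap between the groups for all 3 genes. The 2 highest SERPINA1 values are control replicates 1 and 2 with 26 and 23 counts, whose intervals lie above that of siGSE1 replicate 2 only.

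Other genes of the same systems were taken from 6 lists of 185 genes, of which 110 were tested. Of these, 11 rose and 19 fell, 27.3% against 19.9% of all tested genes, with a median log2 fold change of -0.06 (0.004 over all tested genes). Without control replicate 2, 25 rose and 17 fell, in a fit where 11.8% of all tested genes were higher and 10.1% lower. Of 23 named genes that passed, GSE1 included, 19 also passed without that library, all but F12, PLAT, SERPINA6 and TIMP1, and 11 passed in all 16 alternatives. When libraries were scaled to equal sums of counts per exonic length, 15 rose and 11 fell.

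Among 7 tested complement components outside the members, 0 rose and 0 fell by edgeR and by DESeq2, and MASP2, a lectin pathway protease gene with 9 to 12 control and 19 to 29 siGSE1 counts, was higher at an unadjusted p under 0.05. The median of the list was -0.08, and by edgeR 10.9% of all tested genes rose and 9.02% fell. The most abundant were C1S, a protease of the classical pathway, at 31.5 ± 9.27 and 30.4 ± 2.07 FPKM, and CFD, the protease that cleaves factor B, at 29.4 ± 7.46 and 26.2 ± 0.623 FPKM in control and siGSE1 cells (SD, n = 3 each). Like C3, both were highest in control replicate 2, C1S at 42.22 FPKM and CFD at 37.88. Without that library 2 components were higher, C1S (log2 0.19, adjusted p = 0.0108) and C1R (log2 0.2, adjusted p = 0.0136), the latter named after its value was seen. In that fit 11.8% of all tested genes were higher.

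Of 13 tested complement regulators and receptors, 3 fell and 0 rose, with a median of -0.12, where 9.02% of all tested genes fell and 10.9% rose. At an unadjusted p under 0.05, 2 were higher, and DESeq2 called 0 higher and 3 lower. VTN, which encodes vitronectin, an inhibitor of the membrane attack complex, fell from 34.7 ± 11.4 to 19.3 ± 1.11 FPKM (SD, n = 3 each; log2 -0.88, SE 0.15, adjusted p = 0.000705). It had 27.48, 47.8 and 28.73 FPKM in the control replicates, so it was high in control replicate 2 as C3 was, yet all siGSE1 values (18.01 to 19.96) lay below all controls. CLU, which encodes clusterin, another inhibitor of that complex, fell by 0.33 on the log2 scale (adjusted p = 0.00107). C5AR1, the receptor for the C5a fragment of C5, fell from 0.863 ± 0.0351 to 0.397 ± 0.265 FPKM (adjusted p = 0.0458), a call lost in 8 of 16 alternatives (adjusted p up to 0.166). With edgeR's robust prior VTN had an adjusted p of 0.1. Without control replicate 2, 3 regulators rose and 4 fell, where 11.8% of all tested genes rose and 10.1% fell.

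Of 11 other acute-phase genes tested, 1 rose, 2 fell and 8 did not pass, with a median of -0.00. Of all tested genes, 10.9% rose and 9.02% fell. Without control replicate 2, 5 of 12 rose and 2 fell, with a median of 0.36, against 11.8% and 10.1% of all tested genes. That library was the highest control for 9 of the 11 genes, with a median log2 difference of 0.6 from the other controls. MT2A, which encodes the metal-binding metallothionein 2, rose from 74.5 ± 20.1 to 146 ± 9.49 FPKM (SD, n = 3 each; log2 0.96, SE 0.13, adjusted p = 0.000107), though with edgeR's robust prior it had 0.0591. Control replicate 2 was the lowest library for MT2A, at 51.55 FPKM, the reverse of its place for fibrinogen. AGT, which encodes angiotensinogen, fell from 0.783 ± 0.182 to 0.283 ± 0.0814 FPKM (adjusted p = 0.011, and 0.0698 without siGSE1 replicate 3), and FTL, the ferritin light chain gene, which has many pseudogene copies, fell by 0.21 on the log2 scale (adjusted p = 0.00334), though not by limma on log2(FPKM + 0.5) (adjusted p = 0.184) or log2(FPKM + 0.05) (adjusted p = 0.165). CP (ceruloplasmin) had 4.29, 11.52 and 5.03 FPKM in control and 7.13, 7.52 and 5.74 in siGSE1 replicates, and LBP, which encodes the lipopolysaccharide binding protein, had 1.58, 5.54 and 1.93 against 3, 2.52 and 1.71, both named after their values were seen. For both, control replicate 2 was the highest of all 6 libraries, as for FGG and C3. Without it CP passed as higher (log2 0.53, adjusted p = 1.75e-05), as FGG did, and LBP did not (log2 0.44, adjusted p = 0.214).

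Among 22 tested genes of coagulation and fibrinolysis, where fibrinogen is the substrate, 2 rose and 3 fell, with a median of -0.01, and without control replicate 2, 5 rose and 1 fell. The shares over all tested genes were 10.9% and 9.02%, or 11.8% and 10.1% without that library. THBD, the thrombin receptor thrombomodulin, rose from 5.35 ± 0.506 to 8.85 ± 0.766 FPKM (adjusted p = 4.86e-05) and SERPINE2, an inhibitor of thrombin and urokinase, from 17.2 ± 1.71 to 24.3 ± 0.355 (SD, n = 3 each, adjusted p = 7.73e-05). The protein C receptor gene PROCR fell by 0.29 on the log2 scale (adjusted p = 0.00119), the contact factor gene F12 by 0.32 (adjusted p = 0.0269) and the plasminogen activator gene PLAT by 0.62 (adjusted p = 0.0451). F12 had an adjusted p of 0.0875 and PLAT of 0.0712 without control replicate 2, and these calls were lost in 7 and 12 of 16 alternatives.

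Other protease inhibitors included 5 that fell and 0 that rose of 19 tested, with a median of -0.09, and at an unadjusted p under 0.05, 0 were higher. DESeq2 called 4 lower and 0 higher, and without control replicate 2, 2 rose and 3 fell. By edgeR 9.02% of all tested genes fell and 10.9% rose, or 10.1% and 11.8% without that library. SPINT2, a Kunitz inhibitor of membrane serine proteases, fell from 126 ± 2.81 to 102 ± 1.41 FPKM (SD, n = 3 each, adjusted p = 0.000118). The metalloprotease inhibitor genes TIMP2 and TIMP1 fell by 0.19 and 0.17 on the log2 scale (adjusted p = 0.0149 and 0.0318). SERPINA5, the protein C inhibitor gene, fell from 0.523 ± 0.212 to 0.173 ± 0.0651 FPKM (adjusted p = 0.0111) and SERPINA6, which encodes corticosteroid-binding globulin, from 1.7 ± 0.541 to 1 ± 0.119 (adjusted p = 0.0498), and the latter had an adjusted p of 0.272 without control replicate 2. The calls of TIMP1 and SERPINA6 were lost in 8 and 11 of 16 alternatives, and those of TIMP2 and SERPINA5 in 3 and 2.

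The cytokines, receptors and transcription factors that control these genes were mostly expressed, with 38 of 41 tested, of which 8 rose and 6 fell, with a median of -0.05, or 8 and 7 without control replicate 2. Over all tested genes 10.9% rose and 9.02% fell, or 11.8% and 10.1% without that library. NFKBIZ, a nuclear cofactor of NF-kappaB that induces LCN2 and other genes, rose from 4.8 ± 0.332 to 8.2 ± 0.653 FPKM (SD, n = 3 each; log2 0.75, SE 0.08, adjusted p = 8.28e-06), while LCN2 itself stayed at 10 counts or fewer. CEBPA, a C/EBP factor of differentiated hepatocytes, fell from 7.82 ± 0.598 to 5.44 ± 0.122 FPKM (adjusted p = 0.000783). NFKB1 rose by 0.34 on the log2 scale (adjusted p = 0.00208) and NFKB2 fell by 0.48 (adjusted p = 0.00183, and 0.0704 with edgeR's robust prior), genes for the precursors of the p50 and p52 subunits of NF-kappaB. IL6R, the IL-6 receptor, rose from 2.38 ± 0.317 to 3.45 ± 0.226 FPKM (adjusted p = 0.00271) and the interleukin-1 receptor gene IL1R1 from 10.3 ± 0.95 to 12.8 ± 0.0586 (SD, n = 3 each, adjusted p = 0.00557).

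Several central regulators, named for their roles after their values were seen, did not pass, while other genes of the list did. IL6 had 2.03 ± 0.248 and 2.43 ± 0.568 FPKM, IL6ST, the gp130 gene, 26.1 ± 0.241 and 24.2 ± 0.272, and STAT3 27.2 ± 1.05 and 30.4 ± 0.761 (SD, n = 3 each, adjusted p = 0.457, 0.0654 and 0.0809). The groups did not overlap in FPKM for IL6ST, lower in siGSE1 cells, and STAT3, higher, where this was true of 36.1% of all tested genes. SOCS3, a feedback gene that STAT3 induces, had 21 ± 1.67 and 22.1 ± 1.33 FPKM (adjusted p = 0.667). CEBPB had 73.3 ± 11 and 76 ± 7.02 FPKM (SD, n = 3 each, adjusted p = 0.833). CEBPD, a C/EBP factor induced in the acute phase, had 17.74, 27.9 and 24.33 FPKM in control and 32.46, 24.38 and 32.29 in siGSE1 replicates (log2 0.33, SE 0.13, adjusted p = 0.101), and it passed without control replicate 2 (log2 0.49, adjusted p = 0.000563). The remaining genes of the list that rose were JAK1, OSMR, IL1RAP and BCL3 (edgeR adjusted p = 0.0297, 0.0143, 0.0117 and 0.0152). JAK1 had 0.062 without control replicate 2. Those that fell were PIAS3, LIF, LIFR and NFKBIA (adjusted p = 0.0119, 0.0194, 0.0228 and 0.029).

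**Figure D5:**
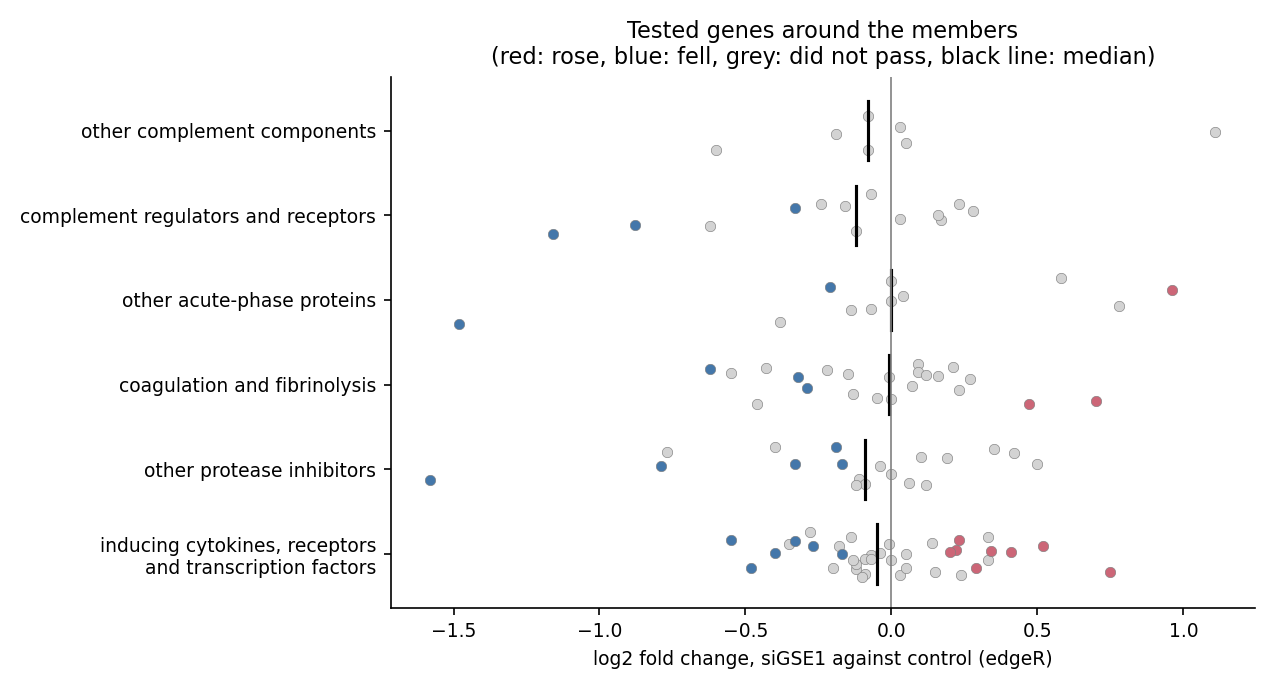
Log2 fold changes (edgeR) of the 110 tested genes in 6 lists around the members, with 1 point per gene and the list median as a black line. List medians lie between -0.12 and -0.00, and the inducing genes, at the bottom, hold 8 that rose and 6 that fell.

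Likeness of pattern was measured as Pearson's r of log2 CPM (library-scaled counts) over the 6 libraries among 6806 genes with a mean of at least 5 FPKM, and is given as a description, since the libraries fall into 2 groups. The genes most like FGA were FAM3A (r = 0.999), FGB (0.998) and PDE4B (0.995). FAM3A had 6.41, 7.77 and 6.54 FPKM in control and 8.31, 8.16 and 8.23 in siGSE1 replicates, a smaller range than that of FGA with control replicate 2 in the same place. FGG had r = 0.834 with FGA. The genes most like C3 were the lysosomal protease gene CTSD (0.993), the metalloprotease gene MMP7 (0.992) and the carbonic anhydrase gene CA12 (0.99), each of them highest in control replicate 2. C5 had r = 0.941 with C3, whereas among the fibrinogen chains FGA had r = 0.185 with C3, FGB 0.236 and FGG 0.636. No antiprotease member reached the level required for this measure.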

How the data were processed

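RNA sequencing counts and FPKM for 60612 genes in 6 A549 libraries were deposited by the authors in 1 table. The submitters' processing notes name bcl2fastq, FastQC, cutadapt, HISAT2, StringTie 1.3.3b, HTSeq, edgeR and build hg38, whereas the series text names STAR and DESeq2. No source used here gives the annotation release or the strandedness of counting. The deposited FPKM equalled count per exonic length and library total within 0.0051 in 100% of cells. Counts were tested with edgeR 4.0.16 in R 4.3.3, using its quasi-likelihood test, TMM factors, a minimum count of 10 in filterByExpr and Benjamini-Hochberg adjustment over 15937 genes with a threshold of 0.05. Standard errors are the log2 fold change divided by the root of F. The procedure was tested on simulated data with independent counts and no library that stood apart, so that test does not cover a library such as control replicate 2. Alternatives used DESeq2 1.42.0 and limma 3.58.1 (on log2 FPKM with pseudocounts of 0.5 and 0.05), no filter, other scalings, a replicate block and leaving out each library. Poisson intervals are exact. Named genes were up to 6 that passed with the smallest adjusted p in each list, and the most abundant where fewer than 2 passed. Members and lists were chosen with earlier results of these data known. Promoters came from RefSeq, with windows for 8 of 9 members.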

Additional observations from a re-analysis of the deposited data

How the results depend on the processing

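The directions of FGA and FGB held under every alternative run, and their calls did not. FGA passed in 14 of 16 alternatives and FGB in 10 of 16. With DESeq2 0 members were higher (FGA 0.747, adjusted p = 0.0847, and FGB 0.857, adjusted p = 0.148, as log2 fold changes), and with edgeR's robust prior 0 (FGA 0.744 and FGB 0.849). With limma on log2(FPKM + 0.5) and log2(FPKM + 0.05) 1 and 1 members were higher, FGB having 0.978 (adjusted p = 0.0608) and 1.01 (adjusted p = 0.0589). Without the filter on low counts 2 members were lower, and FGG (0.241), C3 (-0.325) and CFB (-0.353) passed, in a fit whose prior degrees of freedom over 30620 genes were infinite instead of 11.8. C1S had 0.037 with sample quality weights, an alternative chosen after seeing the data. Over all genes 1730 were higher and 1437 lower. Scaling libraries to equal sums per length gave 2544 and 929, and limma on FPKM gave 905 and 913 lower genes with pseudocounts of 0.5 and 0.05. In the 6 lists 11 genes were lower under each of these 3 settings (11, 11 and 11), against 19. The cause was not tested.

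Leaving out each library in turn, 1049 to 1914 genes were higher and 814 to 1648 lower, 1 to 3 members were higher and 0 to 1 lower, and 8 to 25 list genes were higher and 9 to 17 lower. The log2 fold change ran from 0.631 to 1.4 for FGB, -0.0066 to 0.845 for FGG, -0.479 to -0.00053 for C3, -0.182 to 0.083 for C5, -0.522 to -0.177 for CFB, -0.207 to 0.193 for C1S and -0.322 to 0.042 for CFD. FGG reversed without control replicate 3 and C5 without control replicate 2.

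Deviations of same-numbered libraries from their group means correlated at 0.02, -0.02 and 0, so no pairing by replicate number was seen. With 3 libraries per group this cannot settle whether same-numbered libraries were handled together, which the labels do not say. With the replicate number as a block, 2 members were higher, FGA at 0.809 (adjusted p = 0.000714) and FGB at 0.958 (adjusted p = 0.00172), FGG had 0.349 (adjusted p = 0.269), and 1715 genes were higher and 1382 lower. Depth limits SERPINA1, SERPINA3 and LCN2, which had at most 26 counts in a library.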

Other observations

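The tested genes next to each member on either side were compared in the same fit, in which 19.9% of all tested genes passed. Genes that did not pass the filter on low counts were skipped. PLRG1, which encodes a pre-mRNA splicing factor and lies 12610 bases from FGB, rose from 8.01 ± 0.265 to 9.56 ± 0.165 FPKM (SD, n = 3 each; log2 0.23, edgeR adjusted p = 0.0203), a change smaller than those of FGA and FGB. On the other side of the fibrinogen genes, NPY2R, a neuropeptide Y receptor gene 595668 bases from FGG, had 7 counts in each control library and 9, 17 and 14 in the siGSE1 replicates (adjusted p = 0.225). SERPINA6 and SERPINA5, the nearest tested genes on the 2 sides of SERPINA1, both fell, as given with the protease inhibitors. They lie 53357 and 170748 bases from it, and SERPINA11, SERPINA9 and SERPINA12, between SERPINA1 and SERPINA5, were not tested. The neighbours of C5 moved in opposite directions, with TRAF1, an adaptor of tumour necrosis factor receptors, lower by edgeR (log2 -0.42, adjusted p = 0.0174) and CNTRL, a centrosome protein gene, higher (log2 0.34, adjusted p = 0.0286, and 0.0555 without control replicate 2). NELFE, which encodes a subunit of the negative elongation factor and ends 2 bases from CFB, had 20.4 ± 0.43 FPKM in control and 20 ± 0.871 in siGSE1 cells (SD, n = 3 each, adjusted p = 0.593). ZBTB12, on the other side of CFB, and GSC, next to SERPINA3, did not pass either (edgeR adjusted p = 0.813 and 0.431). Nor did TNFSF14 and AC008760.2 at C3 (0.238 and 0.98) or PTGES2 and C9orf16 next to LCN2 (0.102 and 0.127).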
